A study of Homo sapiens with 8 samples.

Results

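Cytosolic ribosomal protein genes encode the proteins of the small (RPS) and large (RPL) subunits of the ribosome, which decodes mRNA and joins amino acids into protein. Their transcripts are among the most abundant in a growing cell. Several of these genes make their own skipped-exon or retained-intron transcripts, some of them feeding back on protein supply, and many have processed pseudogenes, intronless copies elsewhere in the genome. CELF2 is an RNA-binding splicing regulator that binds U- and G-rich sequence, and T cell stimulation is known to raise its level.

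The members were chosen by name: every gene listed as RPL or RPS with a number, a plain number or one followed by A, L, X or L1, together with RPLP0, RPLP1 and RPLP2, leaving out kinases, pseudogenes and clone names. This gave 80 genes of 11431 gene IDs, 50 of the large and 30 of the small subunit. The unit of measurement is the local splicing variation (LSV), the set of junctions, with or without a retained intron, that leave one exon (a source LSV) or enter one exon (a target LSV) in the direction of transcription. The members had 526 of 91729 LSVs in the table of PMA-stimulated cells and 537 of 91480 LSVs in the table of unstimulated cells.

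RNA came from JSL1 cells, one clone derived from the Jurkat human T cell leukaemia line. The first group was stimulated with the phorbol ester PMA (20 ng/mL for 48 h) and depleted of CELF2 by shRNAs that integrated lentiviruses express upon doxycycline. The second was PMA-stimulated control cells, the third unstimulated cells with the same CELF2 depletion, and the fourth unstimulated control cells. Each of the 4 groups had 2 libraries of poly(A) RNA, 8 in all. No label says if the control cells were given doxycycline or carried a hairpin of their own.

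The deposited values are the authors' pooled group values: the share of each junction in its LSV (percent spliced in), the expected change between shCELF2 and control cells, and the posterior probability that this change is at least 20 percentage points. A share runs between 2.5% and 97.5% in these tables. Values of single libraries and read depth are not in the tables used here, so no spread between libraries and no counting interval could be given. An LSV was called where the posterior of any junction was at least 0.95. This posterior is the authors' own and is not a p-value. The tables hold no expression levels, so the depletion of CELF2 could not be checked. Of 10 T cell genes looked up, 8 had listed LSVs, as did 1 of 10 B cell and myeloid genes (CD79A).

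Most ribosomal protein splicing was close to invariant. In the table of PMA-stimulated cells, 1 junction held at least 90% of the LSV in both shCELF2 and control cells in 406 of the 526 member LSVs (77.2%), against 68.2% of all LSVs. In unstimulated cells the count was 409 of 537 (76.2%), against 70.9% of all LSVs. In 26 genes, the authors' deposited table held no expected change of even 1 point in either state, and 47 genes stayed under 10 points in both. LSVs with a retained intron were frequent among the members, at 59.3% in PMA-stimulated and 59.4% in unstimulated cells, against 30.1% and 29.7% of all LSVs. From 2 (RPL26L1) to 15 (RPLP0) LSVs were listed per gene in PMA-stimulated cells.

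CELF2 depletion moved few ribosomal protein LSVs past the call threshold, and no larger a part of them than of all LSVs. In PMA-stimulated cells, 6 of 526 member LSVs were called (1.14%), in 5 genes, beside 1.87% of all LSVs. In unstimulated cells, 4 of 537 were called (0.745%), in 4 genes, beside 0.985% of all LSVs. By gene, 6.25% of the members had a call in PMA-stimulated cells, beside 10.6% of all gene IDs, and 5.0% in unstimulated cells, beside 6.2%. The called genes were RPL17, RPL24, RPL26L1, RPL41 and RPS15 in PMA-stimulated cells, and RPL17, RPL23A, RPL26L1 and RPS15 in unstimulated cells. RPL17, RPL26L1 and RPS15 were called in both states, RPS15 through different LSVs.

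The sequences of the exons and introns that these results turn on are given here, 5′ to 3′, because they show what each choice does to the reading frame. They were read from GENCODE v29 transcripts whose exon length and flanking intron lengths match the hg19 junctions of the same gene. In exons, capitals mark the alternative exon and lower case the neighbouring 12 bases of the exons on either side. In introns, the whole intron is printed and capitals mark the first in-frame stop codon.
RPL17 exon 3 (hg19 chr18:47017775-47017815, minus strand): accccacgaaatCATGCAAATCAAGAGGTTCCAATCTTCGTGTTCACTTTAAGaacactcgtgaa
RPS2 exon 3 (hg19 chr16:2014277-2014366, minus strand): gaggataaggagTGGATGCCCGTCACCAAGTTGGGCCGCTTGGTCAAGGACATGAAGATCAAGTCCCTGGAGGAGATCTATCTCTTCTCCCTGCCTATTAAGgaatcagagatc
RPLP0 exon 6 (hg19 chr12:120636357-120636542, minus strand): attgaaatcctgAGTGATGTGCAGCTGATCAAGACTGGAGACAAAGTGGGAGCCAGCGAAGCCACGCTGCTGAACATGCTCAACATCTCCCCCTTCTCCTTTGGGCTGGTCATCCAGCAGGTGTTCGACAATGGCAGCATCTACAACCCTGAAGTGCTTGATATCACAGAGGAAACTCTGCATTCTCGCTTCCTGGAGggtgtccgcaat
RPL41 exon 3 (hg19 chr12:56510973-56510995, plus strand): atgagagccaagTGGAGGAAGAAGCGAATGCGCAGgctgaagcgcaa
RPL21 exon 3 (hg19 chr13:27828357-27828418, plus strand): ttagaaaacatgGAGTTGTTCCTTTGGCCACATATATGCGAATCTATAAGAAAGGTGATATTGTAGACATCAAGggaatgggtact
RPS24 18-base exon (hg19 chr10:79797723-79797740, plus strand): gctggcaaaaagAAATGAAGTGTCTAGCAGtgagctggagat
RPS24 22-base exon (hg19 chr10:79799962-79799983, plus strand): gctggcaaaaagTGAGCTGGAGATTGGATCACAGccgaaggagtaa
RPL24 intron 1 (hg19 chr3:101405402-101405515, minus strand): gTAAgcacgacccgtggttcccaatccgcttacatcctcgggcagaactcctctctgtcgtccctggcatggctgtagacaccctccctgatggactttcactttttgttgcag
RPL36A intron 4 (hg19 chrX:100650446-100650715, plus strand): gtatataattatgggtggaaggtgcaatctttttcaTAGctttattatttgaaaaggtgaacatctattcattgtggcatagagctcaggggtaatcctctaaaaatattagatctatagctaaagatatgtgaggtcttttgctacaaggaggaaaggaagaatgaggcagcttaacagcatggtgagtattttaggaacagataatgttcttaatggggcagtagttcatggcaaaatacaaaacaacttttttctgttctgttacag

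RPL17 (ENSG00000265681), which lines the peptide exit tunnel of the large subunit, skipped its coding exon 3 more often in CELF2-depleted cells. In the LSV that enters exon 4, the skipping junction (chr18:47017297-47017902, CDS to CDS) took 69.8% in PMA-stimulated shCELF2 cells, against 24.0% in PMA-stimulated control cells. It took 61.4% in unstimulated shCELF2 cells, against 29.2% in unstimulated control cells. Both depleted groups lay above both control groups. In the authors' deposited table the posterior was 1.0 in PMA-stimulated and 0.991 in unstimulated cells. The junction from exon 3 into exon 4 moved the other way, at 15.5% against 44.8% in PMA-stimulated and 25.6% against 58.8% in unstimulated cells, shCELF2 cells before control cells in each pair. Seen from exon 2, the LSV's other end, skipping was lower, at 27.1% in PMA-stimulated shCELF2 cells against 7.2% in PMA-stimulated control cells, and 16.1% in unstimulated shCELF2 cells against 2.8% in unstimulated control cells. That source LSV was not called, with a posterior in the authors' deposited table of 0.774 in PMA-stimulated and 0.0792 in unstimulated cells. RPL17 exon 3 is 41 bases long. Joining exon 2 to exon 4 forms a stop codon at the join, so the open reading frame ends after 13 codons in place of 184, and that stop lies 424 bases before the last exon junction. RPL17 has 26 annotated pseudogenes, and a readthrough gene with C18orf32 lists the same skipping junction.

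RPL24 (ENSG00000114391) helps to bridge the ribosomal subunits, and its first intron was retained more in CELF2-depleted cells. In the LSV entering exon 2, intron 1 (114 bases, CDS to CDS) took 81.0% in PMA-stimulated shCELF2 cells, against 39.6% in PMA-stimulated control cells. In unstimulated cells it took 73.5% in shCELF2 cells, against 49.6% in control cells. The authors' deposited table gave a posterior of 1.0 in PMA-stimulated cells, a call, and of 0.83 in unstimulated cells, which missed the threshold. From exon 1 the same intron took 31.0% in PMA-stimulated shCELF2 and 8.8% in PMA-stimulated control cells, and 20.9% in unstimulated shCELF2 and 11.5% in unstimulated control cells. The shares differ between the ends of the intron, while depleted cells were higher at both ends in both states. Retention places a stop codon at the second base of the intron, after 2 codons in place of 157. At its 3′ end RPL24 also listed skipping of the 64-base exon 5, with no call. At 1 end of the skipping junction it took 17.7% in PMA-stimulated shCELF2 against 6.7% in PMA-stimulated control cells. The unstimulated shares there were 8.7% in shCELF2 and 5.7% in control cells. Averaged over both ends, the junction took 13.2%, 4.6%, 5.8% and 4.1% in the same order of groups.

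RPL26L1 (ENSG00000037241), a paralogue of the large-subunit gene RPL26, changed its 5′ UTR junctions in the same way in both states. The annotated intron 1 junction (chr5:172386471-172386868, plus strand, UTR to UTR) took 29.0% in PMA-stimulated shCELF2 cells, against 67.2% in PMA-stimulated control cells. The shares in unstimulated cells were 25.6% in shCELF2 cells and 67.8% in control cells. Posteriors in the authors' deposited table were 0.998 and 1.0. A donor 46 bases downstream took 19.6% against 2.7% in PMA-stimulated cells and 20.5% against 6.1% in unstimulated cells, shCELF2 before control. RPL26L1 has 0 annotated pseudogenes and only 2 LSVs, and the other one, at intron 2, held 97.5% on 1 junction in all 4 groups. Of all member LSVs, only those of RPL17 entering exon 4 and of RPL26L1 entering exon 2 were called in both states.

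RPL41 (ENSG00000229117) encodes the smallest ribosomal protein, 25 codons long. Its 23-base exon 3 was skipped in PMA-stimulated shCELF2 cells at 50.3% of the LSV entering exon 4, against 23.4% in PMA-stimulated control cells, 21.5% in unstimulated shCELF2 cells and 18.8% in unstimulated control cells. From exon 2 the skipping junction took 33.4%, 12.7%, 16.5% and 10.8% in the same order of groups. For the LSV entering exon 4, the authors' deposited table gave a posterior of 0.982 in PMA-stimulated cells and 2.41e-06 in unstimulated cells. A second called LSV, leaving exon 2, showed retention of a segment of intron 2 (chr12:56510715-56510972) at 37.4% in PMA-stimulated shCELF2 cells and 67.5% in PMA-stimulated control cells. Retention there was 60.8% in unstimulated shCELF2 cells and 63.8% in unstimulated control cells. From exon 3 the segment took 43.2%, 54.7%, 64.3% and 53.6% in the same order of groups, so with depletion it was lower in PMA-stimulated and higher in unstimulated cells there. In both called LSVs the PMA-stimulated shCELF2 group stood apart from the other 3. Skipping exon 3 shifts the frame after codon 4 and gives an open reading frame of 20 codons.

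RPS15 (ENSG00000115268), a protein of the small-subunit head, was called at a rarely used exon inside intron 2 (chr19:1439605-1439825). Intron 2 itself was spliced at 95.7% in PMA-stimulated shCELF2 cells and at 97.5% in the other 3 groups, measured from exon 2, so both calls concern a minor class of RPS15 reads. The intron segment before the added exon took 40.9% of the LSV that enters it in PMA-stimulated shCELF2 cells, against 69.3% in PMA-stimulated control cells. It took 69.4% in unstimulated shCELF2 and 72.3% in unstimulated control cells. The segment after the added exon took 47.8% in PMA-stimulated shCELF2 and 57.4% in PMA-stimulated control cells. In unstimulated cells the second segment took 58.8% in shCELF2 cells, against 87.6% in control cells, with a posterior of 0.976 in the authors' deposited table. From their other ends, at the exons outside the added one, both segments stood at 2.5% in all 4 groups.

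RPL23A (ENSG00000198242), at the peptide exit site of the large subunit, was called only in unstimulated cells, at a 17-base exon inside intron 1 (chr17:27047432-27047448). The intron after that exon was retained at 60.5% in PMA-stimulated shCELF2 and 56.3% in PMA-stimulated control cells. In unstimulated cells it was at 32.8% in shCELF2 cells, against 70.4% in control cells, with a posterior of 0.975 in the authors' deposited table. Seen from the next exon, its downstream end, the same intron took 39.2% in PMA-stimulated shCELF2 and 39.3% in PMA-stimulated control cells, and 32.1% in both unstimulated groups, so the called difference was listed at the upstream end alone. No test compared the states. RPL23A has 91 annotated pseudogenes, the most of any member, and the annotated intron 1 junction held between 7.4% and 31.2% of the LSV entering exon 2. The part of the pseudogenes in these shares was not tested.

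**Figure D1:**
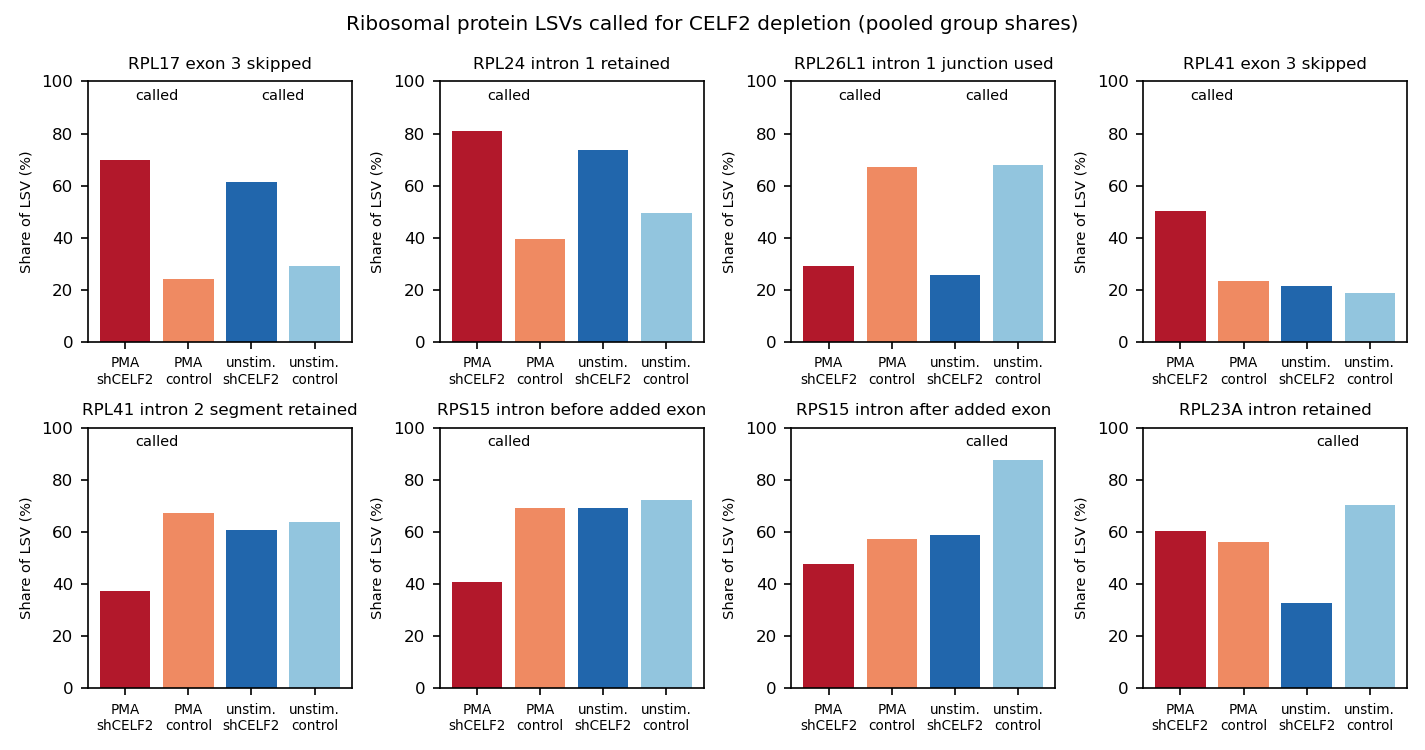
Pooled share (%, vertical axis from 0) of 1 event in each of the 8 called member LSVs, in PMA-stimulated shCELF2, PMA-stimulated control, unstimulated shCELF2 and unstimulated control cells, with "called" above each pair that passed the threshold. RPL17 exon 3 skipping (69.8% against 24.0%, 61.4% against 29.2%) and RPL26L1 (29.0% against 67.2%, 25.6% against 67.8%) differ alike in both states, while RPL41 and RPL23A differ in 1 state each.

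Setting the states side by side gave 18 of 523 member LSVs, in 13 genes, where a junction differed by at least 10 points in the same direction in both states. That was 3.44%, beside 4.24% of all LSVs in both tables, and 16.2% of the genes, beside 21.1%. Opposite directions past 10 points were listed for 5 of 523 (0.956%), beside 0.857% of all LSVs. These shares lie near or below the background, so the members are described as single genes. The comparisons of PMA-stimulated and unstimulated cells share no library.

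Skipping of coding exons was also higher in depleted cells in both states in RPS2 and RPLP0, without a call. RPS2, which sits at the mRNA entry of the small subunit, skipped its 90-base exon 3 at 49.8% of the LSV entering exon 4 in PMA-stimulated shCELF2 cells, against 23.0% in PMA-stimulated control cells. In unstimulated cells the shares were 44.3% in shCELF2 and 22.9% in control cells. Posteriors in the authors' deposited table were 0.936 and 0.762, short of the threshold. From exon 2 the skipping junction took 30.2% against 15.7% in PMA-stimulated and 24.6% against 13.8% in unstimulated cells, shCELF2 before control. Exon 3 skipping keeps the frame of RPS2 and leaves 263 of 293 codons.

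RPLP0, the base of the ribosomal stalk that binds elongation factors, skipped its 186-base exon 6 at 33.7% of the LSV leaving exon 5 in PMA-stimulated shCELF2 cells, against 17.4% in PMA-stimulated control cells. The unstimulated groups held 34.9% in shCELF2 and 16.8% in control cells. Entering exon 7, the junction took 17.0% against 7.6% in PMA-stimulated and 16.6% against 7.6% in unstimulated cells, shCELF2 before control. Skipping exon 6 also keeps the frame, with 255 of 317 codons. The posteriors, 0.373 and 0.508 for this junction in the LSV leaving exon 5 in the authors' deposited table, did not reach a call. A junction of RPL21, a large-subunit protein (chr13:27827980-27830321), which has no counterpart in the annotation and bypasses exons 3 and 4, took 41.2%, seen from its downstream end, in PMA-stimulated shCELF2 against 23.8% in PMA-stimulated control cells. In unstimulated cells it took 25.0% in shCELF2 and 9.6% in control cells. Its upstream end gave 23.3% against 8.1% in PMA-stimulated and 11.6% against 2.8% in unstimulated cells, shCELF2 before control.

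Across all members, 54 exon-skipping junctions in 40 genes had a mean share of at least 5% over the groups. The share, averaged over the ends of the junction, was at least 5 points higher in shCELF2 cells in both states for 6 of them (11.1%), beside 9.83% of 15397 such junctions in all genes. It was lower in both for 1 (1.85%), beside 5.83%. That 1 is the annotated intron 3 junction of RPS2. It shares an LSV with the RPS2 exon 3 skipping junction, which is counted as higher, so they are not independent. The 6 belong to RPL17, RPS2, RPL21, RPLP0, RPS10 and RPL37A. In RPL21 the counted junction is the one without annotation. Skipping of RPL21 exon 3 alone (chr13:27827980-27829379) was lower with depletion. It took 36.1% against 58.2% in PMA-stimulated and 20.0% against 23.6% in unstimulated cells, shCELF2 before control, with no call. In RPS10 the skipped exon is a rare one of 100 bases, and the annotated intron 5 took 95.5% against 84.9% in PMA-stimulated and 97.5% against 86.2% in unstimulated cells, shCELF2 before control, seen from its upstream exon. From its downstream exon RPS10 intron 5 took 93.8% against 91.9% and 97.5% against 87.0% in the same order. In RPL37A a junction into a distant 3′ exon took 80.1% against 66.0% in PMA-stimulated and 88.8% against 71.9% in unstimulated cells. Those are its shares among junctions entering that exon, and from its upstream exon it stood at 2.5% in all 4 groups. The median difference over the 54 junctions was 0.0 points in both states. Many of them, such as those of RPL5 and RPS13, stood at 97.5%, the highest share in these tables, in all 4 groups. These 2 junctions are annotated introns of the main transcript that bypass a rarely used exon. Shares at that limit can show no difference, so the median says little about regular exons.

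**Figure D2:**
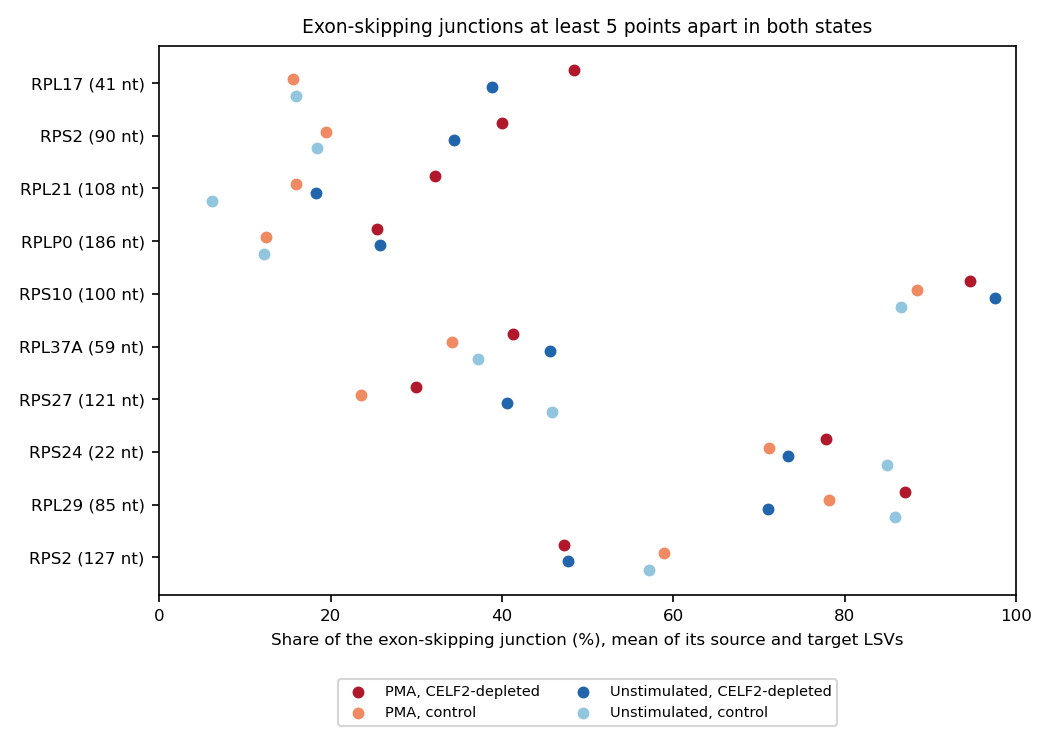
Share (%, horizontal axis) of the members' exon-skipping junctions that were at least 5 points apart between shCELF2 and control cells in both states, averaged over source and target LSVs, with 1 point per group and the exon length beside the gene. Both shCELF2 points lie right of their control points for RPL17, RPS2, RPL21, RPLP0, RPS10 and RPL37A, left of them for the 127-base RPS2 exon, and in opposite directions for RPS27, RPS24 and RPL29.

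Retained introns outside the calls also differed in the same direction in both states. RPL36A, a large-subunit protein near the tRNA exit site, retained its last intron, of 270 bases, at 59.4% in PMA-stimulated shCELF2 and 46.1% in PMA-stimulated control cells when seen from exon 4. The unstimulated shares were 68.5% in shCELF2 and 50.4% in control cells. From exon 5 they were 44.4% against 25.7% in PMA-stimulated and 49.4% against 34.1% in unstimulated cells, so depleted cells were higher at both ends in both states. With this intron kept, the reading frame runs on into it and ends after 112 codons, against 106 without it. None of these RPL36A LSVs was called.

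RPS4X, the X-linked copy of a small-subunit protein, listed a retained intron at 89.1% in PMA-stimulated shCELF2 and 67.8% in PMA-stimulated control cells, and at 79.1% in unstimulated shCELF2 and 59.1% in unstimulated control cells, in the LSV entering exon chrX:71494105-71494285. From the intron's upstream exon its share was 2.5% in all 4 groups. The exon entered lies inside annotated intron 4 of RPS4X. The junction of intron 4 held 97.5% in all 4 groups, so these shares concern a minor class of RPS4X reads. RPL28, of the large subunit, retained intron sequence before the exon at chr19:55898653-55898978 at 18.4% in PMA-stimulated shCELF2 and 35.0% in PMA-stimulated control cells. There the unstimulated shares were 54.9% in shCELF2 and 66.8% in control cells, lower with depletion in both states.

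In the 5′ UTR of RPL8, a protein close to the peptidyl transferase centre, the annotated first junction took 48.8% in PMA-stimulated shCELF2 and 62.9% in PMA-stimulated control cells, and 51.2% in unstimulated shCELF2 and 71.9% in unstimulated control cells. Those RPL8 shares are from the downstream exon, and from the upstream exon the junction held 97.5% in all 4 groups. RPS20, of the small-subunit head, retained an intron of 94 bases at 24.6% in PMA-stimulated shCELF2 against 10.8% in PMA-stimulated control cells, and at 17.8% in unstimulated shCELF2 against 6.3% in unstimulated control cells. From its downstream exon the RPS20 intron stood at 2.5% in all 4 groups. Neither gene was called.

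**Figure D3:**
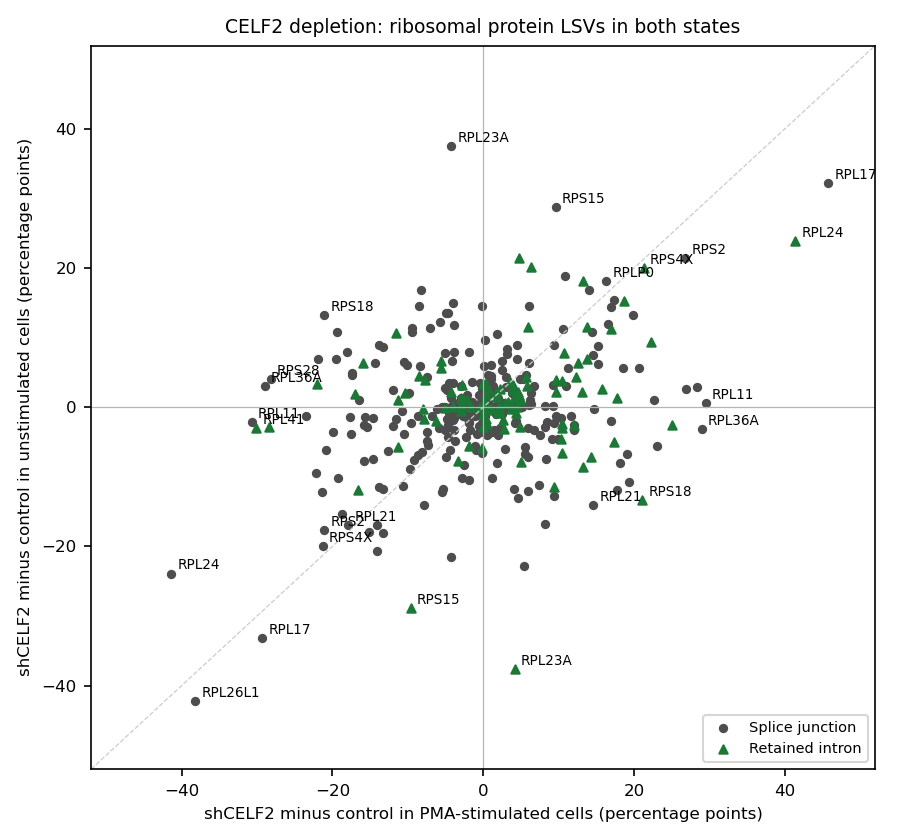
Difference in pooled share between shCELF2 and control cells (percentage points) for every member junction (dots) and retained intron (triangles) in both tables, with PMA-stimulated cells on the horizontal and unstimulated cells on the vertical axis. Most points lie near 0 and RPL17, RPL24, RPL26L1 and RPS2 lie far out along the diagonal, while RPL41, RPL11 and 1 RPS15 intron lie along the horizontal axis and RPL23A and another RPS15 intron along the vertical axis.

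Several LSVs came near the threshold in PMA-stimulated cells because 1 group stood apart. RPL11, which with RPL5 and the 5S RNA binds the p53 regulator MDM2, used an alternative donor (chr1:24018550-24019099) at 18.6% in PMA-stimulated shCELF2 and 49.3% in PMA-stimulated control cells. In the unstimulated groups it took 17.2% in shCELF2 and 19.3% in control cells, and the posterior for PMA-stimulated cells was 0.933 in the authors' deposited table. RPL36A used an alternative first-intron donor at 7.9% in PMA-stimulated shCELF2 and 36.9% in PMA-stimulated control cells, against 15.4% in unstimulated shCELF2 and 12.3% in unstimulated control cells. RPS28, at the mRNA exit of the small subunit, spliced its annotated intron 2 at 24.7% in PMA-stimulated shCELF2 and 52.9% in PMA-stimulated control cells, against 30.1% in unstimulated shCELF2 and 26.1% in unstimulated control cells. From exon 3 the RPS28 junction took 20.9%, 36.3%, 21.7% and 24.6% in the same order of groups. In each of these 3 the PMA-stimulated control group was the high one.

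A group lay at least 15 points from each of the other 3, which spanned under 10 points, in a small number of member LSVs. The PMA-stimulated shCELF2 group stood apart in 5 of 523 LSVs (0.956%, beside 0.615% of all LSVs), among them LSVs of RPL22, RPL41 and RPS15. The PMA-stimulated control group stood apart in 6 (1.15%, beside 1.17%), in RPL11, RPL17, RPL36A, RPS18, RPS27 and RPS28. The unstimulated shCELF2 group did so in 1 (0.191%, beside 0.464%), and the unstimulated control group in 2 (0.382%, beside 0.363%). With 1 pooled value per group, a difference of the treatment and a difference of 1 library cannot be told apart here.

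The PMA effect was read by setting shares of the stimulated and unstimulated tables side by side. These tables were quantified separately, so no test was made. In shCELF2 cells, 12 of 523 member LSVs differed by at least 20 points (2.29%), beside 1.87% of all LSVs. In control cells 22 did (4.21%), beside 2.59%. In 3 LSVs (0.574%, beside 0.352%) the same junction differed in the same direction in both kinds of cells, in RPL28, RPL37 and RPL21.

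RPL28 retained intron sequence before chr19:55898653 less after PMA, at 18.4% in PMA-stimulated against 54.9% in unstimulated shCELF2 cells, and 35.0% in PMA-stimulated against 66.8% in unstimulated control cells. RPL37, on the outer surface of the large subunit, listed a junction (chr5:40828053-40832544) with no counterpart in the annotation, at 80.0% in PMA-stimulated against 49.5% in unstimulated shCELF2 cells. The control cells held 79.5% with PMA and 53.5% without. In that RPL37 LSV the retained intron took 17.5% against 49.5% in shCELF2 cells and 20.3% against 46.3% in control cells, PMA-stimulated before unstimulated. All these RPL37 shares are from the upstream exon. From the other end the junction held between 97.2% and 97.5% in the 4 groups, and the intron took 96.7% against 97.4% in shCELF2 cells and 97.2% against 97.5% in control cells, so the PMA difference was listed at the upstream end alone. Depletion moved RPL37 by 4.0 points or less there.

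RPL21 entered its annotated exon 3 from exon 2 at 49.2% in PMA-stimulated against 74.9% in unstimulated shCELF2 cells, and 40.9% in PMA-stimulated against 82.4% in unstimulated control cells. Skipping of exon 3 (chr13:27827980-27829379), seen from exon 2, took 27.5% in PMA-stimulated against 13.5% in unstimulated shCELF2 cells, and 51.0% in PMA-stimulated against 14.7% in unstimulated control cells. From exon 4 it took 44.6% against 26.5% in shCELF2 cells and 65.4% against 32.6% in control cells, so skipping was higher with PMA at both ends in both kinds of cells. The exon is 62 bases long and skipping it gives an open reading frame of 59 codons, against 160, with the stop 151 bases before the last exon junction. RPL21 has 66 annotated pseudogenes, and their part in these shares was not tested.

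At 10 points, 15 of 523 member LSVs differed in the same direction in both kinds of cells (2.87%), beside 2.67% of all LSVs. Among them, RPL36A spliced intron 3 (3512 bases) at 66.3% in PMA-stimulated against 47.7% in unstimulated shCELF2 cells, and 59.5% against 44.6% in control cells, seen from exon 3. From exon 4 the same RPL36A junction took 86.8% against 97.5% in shCELF2 cells and 88.7% against 89.5% in control cells, lower with PMA, so the ends gave opposite directions. RPS14, a platform protein of the small subunit, used a distal 5′ UTR junction (chr5:149827298-149829266) at 66.0% in PMA-stimulated against 53.3% in unstimulated shCELF2 cells, and 83.4% against 48.6% in control cells. RPS27, of the small subunit, used its annotated intron 1 junction at 38.9% against 54.7% in shCELF2 cells and 29.0% against 59.3% in control cells, PMA-stimulated before unstimulated. From exon 2 it took 21.1% against 26.4% in shCELF2 cells and 18.2% against 32.4% in control cells. RPL36, of the large subunit, retained part of its first intron at 19.8% against 30.0% in shCELF2 cells and 15.2% against 27.8% in control cells, in the same order, seen from its downstream end. From its upstream end that RPL36 segment took 87.2% against 91.6% and 77.6% against 87.7%. Just short of 10 points, RPL32 retained an intron at 87.7% against 97.4% in shCELF2 cells and 84.4% against 96.6% in control cells, seen from its downstream exon. From its upstream exon the RPL32 intron stood at 2.5% in all 4 groups. Its downstream exon lies inside annotated intron 2 of RPL32. The junction of intron 2 held 97.5% in all 4 groups, so these shares concern a minor class of RPL32 reads.

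**Figure D4:**
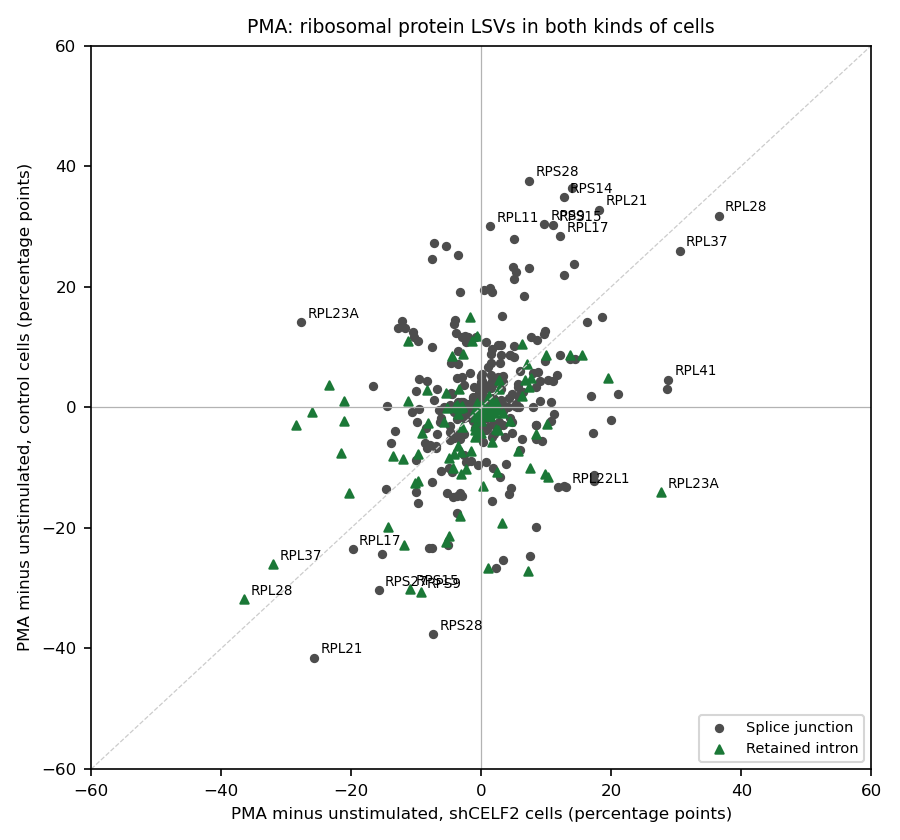
Difference in pooled share between PMA-stimulated and unstimulated cells (percentage points) for every member junction (dots) and retained intron (triangles), with shCELF2 cells on the horizontal and control cells on the vertical axis. RPL28, RPL37 and RPL21 lie at least 20 points out in the same direction on both axes, while RPS28, RPS14 and RPL11 lie mainly along the control axis and RPL23A in opposite directions.

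Among members with alternative splicing described in earlier work, levels ranged from invariant to strongly mixed. RPL22L1, a paralogue of RPL22, chose between acceptors 67 bases apart at its exon 3. The distal one (chr3:170585923-170586087) took 69.4% in PMA-stimulated shCELF2 and 50.3% in PMA-stimulated control cells, and 56.6% in unstimulated shCELF2 and 63.3% in unstimulated control cells, with no call. From exon 2 the same junction took 69.2%, 51.0%, 56.2% and 64.2% in the same order of groups, so both ends gave the same picture.

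RPS24, mutated in some Diamond-Blackfan anaemia patients, includes or leaves out small exons before its last one. The junction that skips them all (chr10:79797062-79800373) took 76.4% in PMA-stimulated shCELF2 and 69.0% in PMA-stimulated control cells, and 72.1% in unstimulated shCELF2 and 83.3% in unstimulated control cells. The junction into the 22-base exon took 22.2%, 29.2%, 26.2% and 14.8% in that order. Skipping the 22-base exon lengthens the open reading frame to 133 codons, against 130 with it, since the exon opens with a stop codon. With the 18-base exon as well the frame has 131 codons. No RPS24 LSV was called.

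RPS9 split its 5′ UTR donors, 5 bases apart, at 57.5% in PMA-stimulated shCELF2 and 57.3% in PMA-stimulated control cells, and 64.5% in unstimulated shCELF2 and 63.7% in unstimulated control cells. An RPS9 intron of 90 bases varied more, at 29.8% against 15.5% in PMA-stimulated and 39.1% against 46.2% in unstimulated cells, shCELF2 before control. Those shares are from its downstream exon, and from its upstream exon that RPS9 intron stood at 2.5% in all 4 groups. No RPS9 LSV was called. RPL3, whose protein reaches the peptidyl transferase centre, spliced its annotated intron 1 at 82.9% in PMA-stimulated shCELF2 and 65.1% in PMA-stimulated control cells, against 65.5% in unstimulated shCELF2 and 77.4% in unstimulated control cells. RPL22, an RNA-binding protein of the large subunit that mouse T cell development needs, used a junction at chr1:6257816-6259430 at 25.3% in PMA-stimulated shCELF2 cells, against 2.7% in PMA-stimulated control, 8.1% in unstimulated shCELF2 and 7.0% in unstimulated control cells. Its posterior of 0.801 in the authors' deposited table missed the threshold. Seen from its downstream end, the RPL22 junction stood between 2.5% and 2.6% in the 4 groups. RPL10A and RPL12 had expected changes of at most 3.17 points and 2.98 points, and RPL30 of at most 3.54 points, in the authors' deposited table. For RPS3 and RPL5 every expected change was under 1 point, as for RPS13.

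Retained introns of the members often stood at 2.5%, the lowest share in these tables: in PMA-stimulated cells 48.6% of them did in shCELF2 and 52.5% in control cells, against 24.5% and 27.5% of the introns of other genes. Over 179 introns in PMA-stimulated cells, averaged over both ends where both were listed, the median share was 2.6% in shCELF2 and 2.5% in control cells, against 8.1% and 7.1% over 15649 introns of other genes. Over 182 introns in unstimulated cells, it was 2.7% in shCELF2 and 2.6% in control cells, against 7.5% and 6.6% in other genes. The members' medians in shCELF2 and control cells lay within 0.1 points of each other in both states.

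The introns with high shares often differed between their ends. In PMA-stimulated control cells, 40 of 133 member introns listed at both ends had at least 50% at one of them, and for 18 of the 40 (45.0%) the other end stood at 2.5%. In other genes that was so for 2.93% of 2762 introns. Both ends held at least 50% in 11 of those 40 member introns and in 1790 of the 2762 introns of other genes. The range over the 4 groups was from 40.0% to 46.5% in members and from 2.93% to 4.04% in other genes. RPS18, a small-subunit head protein, illustrates it with an intron of 139 bases. From the exon before it, the intron took 82.2% in PMA-stimulated shCELF2 and 61.1% in PMA-stimulated control cells. From the exon after it, the intron took 2.5% in both. The annotated intron 2 junction of RPS18, which bypasses the exon before it, held 97.5% in all 4 groups. Across introns, the Pearson correlation between the ends in PMA-stimulated control cells was 0.427 in members and 0.824 in other genes, given as a description since both ends come from the same libraries. Introns at the ceiling of 97.5% in some group were listed in 17 of 73 genes with a listed intron, among them RPL10, RPL13, RPL28, RPL37, RPL37A, RPL41, RPL8, RPLP0 and RPLP2.

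**Figure D5:**
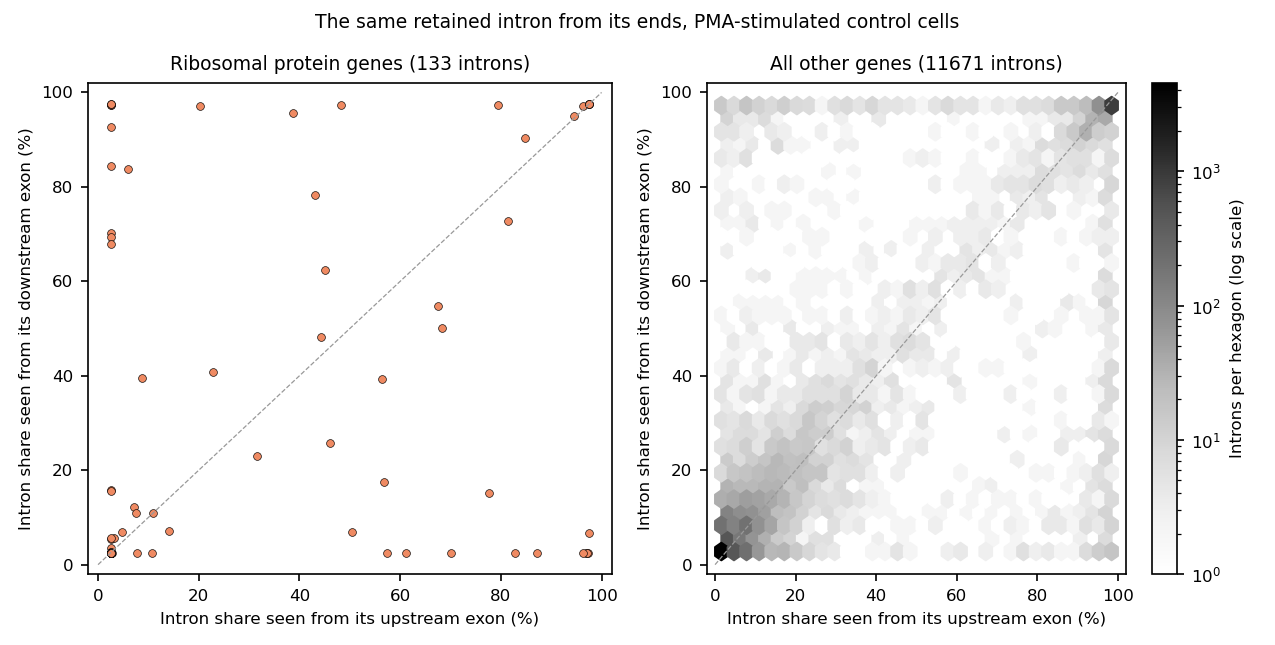
Share of the same retained intron seen from its upstream exon (horizontal, %) and its downstream exon (vertical, %) in PMA-stimulated control cells, for 133 member introns (left, 1 point each) and 11671 introns of other genes (right, shading on a log scale). Member introns line the left and bottom edges, with 18 at 2.5% from one end and at least 50% from the other, while those of other genes gather along the diagonal.

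Pseudogene number is known from the annotation and was set beside the intron shares. The members have 1062 annotated pseudogenes named after them, with at least 1 for 75 of the 80 genes. The mean intron share of a gene and its pseudogene number had a Spearman correlation of 0.166 and a Pearson correlation of 0.183 over 73 genes, as a description. The median of that mean share was 27.0% in 36 genes with at least 10 pseudogenes and 14.8% in 37 genes with fewer. The part of pseudogenes in the shares was not tested. Of 183 listed introns of the members, 63 were matched to the annotation. Only 3 of those matched hold a small nucleolar RNA, and each of the 3 stood at 2.5%. Over the 4 groups, between 48.4% and 52.5% of all member introns stood at that lowest share.

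Other parts of the translation machinery, from lists of genes, had similarly few calls. Of mitochondrial ribosomal protein genes, 4 of 69 had a call in PMA-stimulated cells (5.8%) and 2 of 70 in unstimulated cells (2.86%). Ribosome assembly factors had 3 of 96 in each state (3.12%). Of initiation factors, 1 of 50 was called in each state, EIF4E2, a cap-binding protein. The list of elongation factors had 1 of 16 called in PMA-stimulated cells and 0 in unstimulated cells. That call was TPT1, a gene of the list that does not itself encode an elongation factor. Host genes of small nucleolar RNAs had 1 of 19 in PMA-stimulated cells, SNHG14, and 0 in unstimulated cells. Each share lies below the 10.6% of all gene IDs in PMA-stimulated and 6.2% in unstimulated cells.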

How the data were processed

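The deposited tables, 1 for PMA-stimulated and 1 for unstimulated cells, hold per LSV the authors' expected change score (shCELF2 minus control), its posterior probability and the group shares, which are fraction values pooled over each group's libraries. The expected change comes from the authors' model, so it need not equal the difference of the shares. For small changes it often lies nearer 0 than that difference, while some large ones slightly exceed it. Per the submitters' processing notes, STAR 2.5.1b and the hg19 genome build were used, in roles not given in the sources used here.

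From these tables, shares were multiplied to percent, LSVs were matched between the tables by ID, and counts were made with Python 3.11.15 and pandas 2.3.3, with figures by matplotlib 3.10.9. The counting code was tested on simulated data. Calls rest on the posterior of at least 0.95, and size thresholds were 5, 10, 15 and 20 points. No count model and no test of the PMA difference was possible, since the tables hold pooled values from tables quantified separately, and read depth is unknown. On the minus strand, the letter of the LSV type, not the ID, gives the end in the direction of transcription. Junctions were matched to GENCODE v29 (GRCh38) introns of the same gene ID by intron length, with no coordinates converted, and all printed coordinates are hg19 from the tables. Places such as CDS and UTR are those of the main transcript of GENCODE v29.

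The members and the gene lists were chosen with earlier results of these data known. Named genes are those with a call, those with the 15 largest expected changes in each state, the 15 largest PMA differences of the same direction, 14 genes described in earlier work, and the 10 largest retained-intron shares. RPS10, RPS20 and RPL29, and the markers of T, B and myeloid cells, were chosen after their values were seen. The skipping, same-direction and standing-apart counts were also added then. Alternatives were other thresholds, event kinds and LSV ends.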

Additional observations from a re-analysis of the deposited data

Results flagged for a closer look

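In 5 LSVs the shCELF2 minus control difference passed 10 points in opposite directions in the 2 states, a difference between states that was not tested. The intron 1 junction of RPL3 (chr22:39714597-39715600) was 17.8 points higher in shCELF2 cells with PMA and -11.9 points in unstimulated cells. For RPL21, the junction chr13:27828418-27829379 was 14.6 points higher with PMA, at 31.7% against 17.1%, and -14.0 points without, at 28.4% against 42.4%, shCELF2 before control. The RPL41 intron ending at chr12:56510972 gave -11.5 points with PMA and 10.7 points without. The RPS18 junction chr6:33243434-33243574 gave -21.1 points with PMA, at 17.8% in shCELF2 and 38.9% in control cells. Without PMA it gave 13.3 points, at 25.0% and 11.7%. It leaves an exon that the annotated intron 2 junction of RPS18 bypasses at 97.5% in all 4 groups. The RPS28 junction chr19:8386458-8386540, whose donor lies beside the annotated one, gave -19.4 points with PMA and 10.8 points without. None of these 5 LSVs was called in either state.

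Among 13 names left out by the rule for members, 2 of 36 LSVs were called in PMA-stimulated cells, beside 1.87% of all LSVs. In unstimulated cells 0 of 34 were called, beside 0.985%. In the readthrough gene RPL17-C18orf32, the junction that skips RPL17 exon 3 took 31.5% in PMA-stimulated shCELF2 cells, against 8.0% in PMA-stimulated control cells. In RPL23AP7, listed as a pseudogene, a junction (chr2:114383306-114384615) took 33.2% in PMA-stimulated shCELF2 cells, against 62.4% in PMA-stimulated control cells.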

How the results depend on the processing

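No paired analysis was possible because the tables hold 1 pooled value per group, and for the same reason no library could be left out in turn. Calls in PMA-stimulated cells numbered 6 LSVs in 5 genes. They numbered 10 in 9 genes at a posterior of 0.9 (1.9% of member LSVs, beside 2.33% of all LSVs), 17 in 12 by an expected change of 20 points (3.23%, beside 3.84%) and 46 in 24 by 10 points (8.75%, beside 9.33%). Without LSVs holding de novo junctions or retained introns 1 LSV in 1 gene was left (1.64%, beside 1.76%), and among LSVs of 2 junctions 1 in 1 gene (0.578%, beside 1.13%). In unstimulated cells, with 4 LSVs in 4 genes, the counts were 2 in 2 genes at 0.99 (0.372%, beside 0.606%), 9 in 9 by 20 points (1.68%, beside 2.4%), 27 in 21 by 10 points (5.03%, beside 6.29%), 1 in 1 without de novo junctions and 2 in 2 among LSVs of 2 junctions. In these last 2 settings the members' share lay above that of all LSVs, at 1.59% of 63 LSVs beside 0.949%, and 1.13% of 177 beside 0.594%. Fewer LSVs enter those settings by construction. Leaving out LSVs shared with another gene ID, or LSVs in 1 table alone, changed no count of calls. Shared here means that another gene ID lists the identical set of junctions. RPL17-C18orf32 lists the RPL17 exon 3 skipping junction in a different set, so the called RPL17 LSV stayed in. Whether that overlap bears on the RPL17 call was not tested.

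PMA differences of 20 points, in 12 LSVs of shCELF2 cells, 22 of control cells and 3 of the same direction, became 39, 62 and 15 at 10 points. They became 0, 1 and 0 without de novo junctions, and 3, 7 and 1 among LSVs of 2 junctions. Among alternatives chosen after seeing the data, same-direction depletion differences (18 LSVs) were 38 at 5 points, 5 at 20 points and 3 without de novo junctions. Opposite ones (5) were 27, 0 and 1 in that order. Of these alternative PMA and depletion counts, only the 15 at 10 points has a share over all LSVs here (2.87%, beside 2.67%). The others cannot be set against a background. Without de novo junctions, 61 member LSVs remained in PMA-stimulated and 63 in unstimulated cells, so lower counts there come with fewer LSVs. Skipping junctions higher with depletion in both states (6) stayed between 4 and 6, while lower ones (1) were 2 from target LSVs and 0 at 10 points. Mean intron shares of 23.8%, 23.1%, 25.7% and 25.4%, in the order PMA-stimulated shCELF2, PMA-stimulated control, unstimulated shCELF2 and unstimulated control, were 21.6%, 20.6%, 23.5% and 23.2% from source LSVs and 24.2%, 23.4%, 25.5% and 25.1% from target LSVs. Mean inclusion of 38 cassette exons was 76.0%, 77.7%, 76.6% and 76.9% in that order. Read depth is unknown, so no share can be given a counting error.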
